A study of Mus musculus with 4 samples.

Results

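The Klhl, Kbtbd and Kctd genes encode BTB-domain proteins, most of which are known or thought to bring substrates to ubiquitin ligases built on the scaffold CUL3. They were taken as every protein-coding row whose symbol is Klhl, Kbtbd or Kctd followed by a number, which gave 66 of the 54532 genes in the table: 36 Klhl, 21 Kctd and 9 Kbtbd genes. Of these, 44 had enough reads to be tested. The set was proposed because Klhl genes were already known to rise in the comparison described here, so the members were in effect chosen by their log2 fold changes, lactic acid over PBS, in these 4 libraries, and the changes of members and the counts of those past a threshold are a description of the set and support nothing further. RNA came from LL2 cells, a mouse line derived from a Lewis lung carcinoma. A group of 2 libraries came from cells given lactic acid at 20 mM in the medium for 24 h, and a group of 2 came from cells that got PBS, the saline vehicle, in equal amount over the same 24 h. Polyadenylated RNA was sequenced from all 4, and all 4 share the 1 cell line with no genetic change stated in the labels. The libraries are called biological replicates, and nothing says whether they came from separate cultures, so the p-values measure the spread between these libraries, which may be technical. The title of the series names Chac1 and ferroptosis, a death of cells driven by iron, as its subject, and not ubiquitin ligases.

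In a CUL3 ligase the BTB domain of the adaptor binds CUL3, whose other end carries the RING protein RBX1 and the ubiquitin-loaded E2 enzyme. In Klhl and most Kbtbd proteins a propeller of Kelch repeats at the far end holds the substrate, whereas Kctd proteins have no Kelch repeats and assemble through a BTB-like domain into rings. The ligase is switched on when the ubiquitin-like protein NEDD8 is attached to the cullin, and it is switched off when the COP9 signalosome removes NEDD8. The best known BTB-Kelch protein is KEAP1, which marks the oxidative stress factor NRF2 for degradation and whose symbol lies outside the rule.

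Counts summed to 15501006 to 17409990 per library, and 13922 genes were tested. Abundance is given in CPM, the counts as a share of the library scaled between libraries by TMM, for single genes and in the deposited FPKM, which divide by gene length, where genes are set against each other. Fold changes are lactic acid over PBS from edgeR's quasi-likelihood test, a gene is called higher or lower at a Benjamini-Hochberg adjusted p below 0.05 over all genes tested, and errors of log2 fold changes are standard errors (SE). By this rule 49.0% of all genes tested were called, 24.7% higher and 24.3% lower. Replicates differed by more than counting noise, with a chi-square per gene of 2.37 in the PBS pair and 2.85 in the lactic acid pair against 31.7 to 33.0 between groups, and no library stood apart. The mesenchymal marker Vim (vimentin) was abundant in both groups at 854 ± 2.61 and 699 ± 8.07 FPKM (PBS and lactic acid, mean ± SD, n = 2), and the epithelial keratin Krt8 fell from 60.0 ± 0.965 to 27.0 ± 0.445 FPKM, whereas its partner keratin Krt18 read 69.1 ± 2.17 and 68.3 ± 0.657 FPKM and was not called. The lung and epithelial markers Epcam, Cdh1, Nkx2-1, Sftpc and Sftpb had 0 to 7 counts in a library. Of the markers of other cell types, several were at or near 0, with 0 to 1 counts for Ptprc and Cd3e of leukocytes, 1 to 7 for Pecam1, Cdh5 and Kdr of endothelium, 0 for Myog and Myod1 of muscle, and 0 for Rbfox3 of neurons. Others on the same lists had reads. They included Cd68 at 62 to 130 counts, Lyz2 at 29 to 41 and the neuronal tubulin Tubb3 at 88 to 111. Of the muscle genes, the filament gene Des had 12 to 38 counts and Ttn 21 to 37. By the rule given above Cd68 and Des were called higher with lactic acid (log2 0.89 and 1.41). The synaptic vesicle gene Syp was called lower (log2 -2.23, from 11 and 14 counts to 2 and 3). Lyz2, Ttn (log2 -0.093) and Tubb3 were not called. The summed CPM of the leukocyte markers was nonetheless higher with lactic acid (8.58 to 10.2 against 6.24 to 6.49), mostly through Cd68, which cells of other types also express, and that of the 6 muscle markers was 4.23 to 4.26 against 2.27 to 2.98. The part of these shifts in the changes below was not tested.

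Klhl and Kctd genes that were called lay mostly on the higher side, and the 1 called Kbtbd gene was lower. The families were not tested against each other. Among the 22 Klhl genes tested, 10 were higher, 2 lower and 10 not past the threshold. The 16 Kctd genes tested gave 8 higher and 0 lower, with 8 not past it, and the 6 Kbtbd genes gave 0 higher, 1 lower and 5 not past it. As shares, 45.5% of the Klhl genes and 50% of the Kctd genes were called higher, beside 24.7% of all genes. The shares called lower were 9.09% of the Klhl genes, 0% of the Kctd genes and 16.7% of the Kbtbd genes, beside 24.3% of all genes. In either direction, 47.7% of the members were called, beside 49.0% of all genes. The median log2 fold change was 0.22 for Klhl, 0.22 for Kctd and -0.23 for Kbtbd, beside 0.0073 over all genes tested. The Kbtbd median, over 6 genes, was -0.41 without lactic acid replicate 1 and -0.18 without lactic acid replicate 2. The log2 fold change was above 0 in 17 of 22, 12 of 16 and 0 of 6 genes. Of the Kbtbd genes, Kbtbd3 was above 0 when counts were scaled by library totals alone and without lactic acid replicate 2 or PBS replicate 1, with a log2 fold change of up to 0.29. Tested members ranged from a log2 fold change of -1.14 for Kbtbd11 to 1.09 for Kctd13. The 2 groups did not overlap in CPM for 30 of the 44 members, or 68.2%, beside 72.3% of all genes, with lactic acid above for 23 and below for 7.

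**Figure D1:**
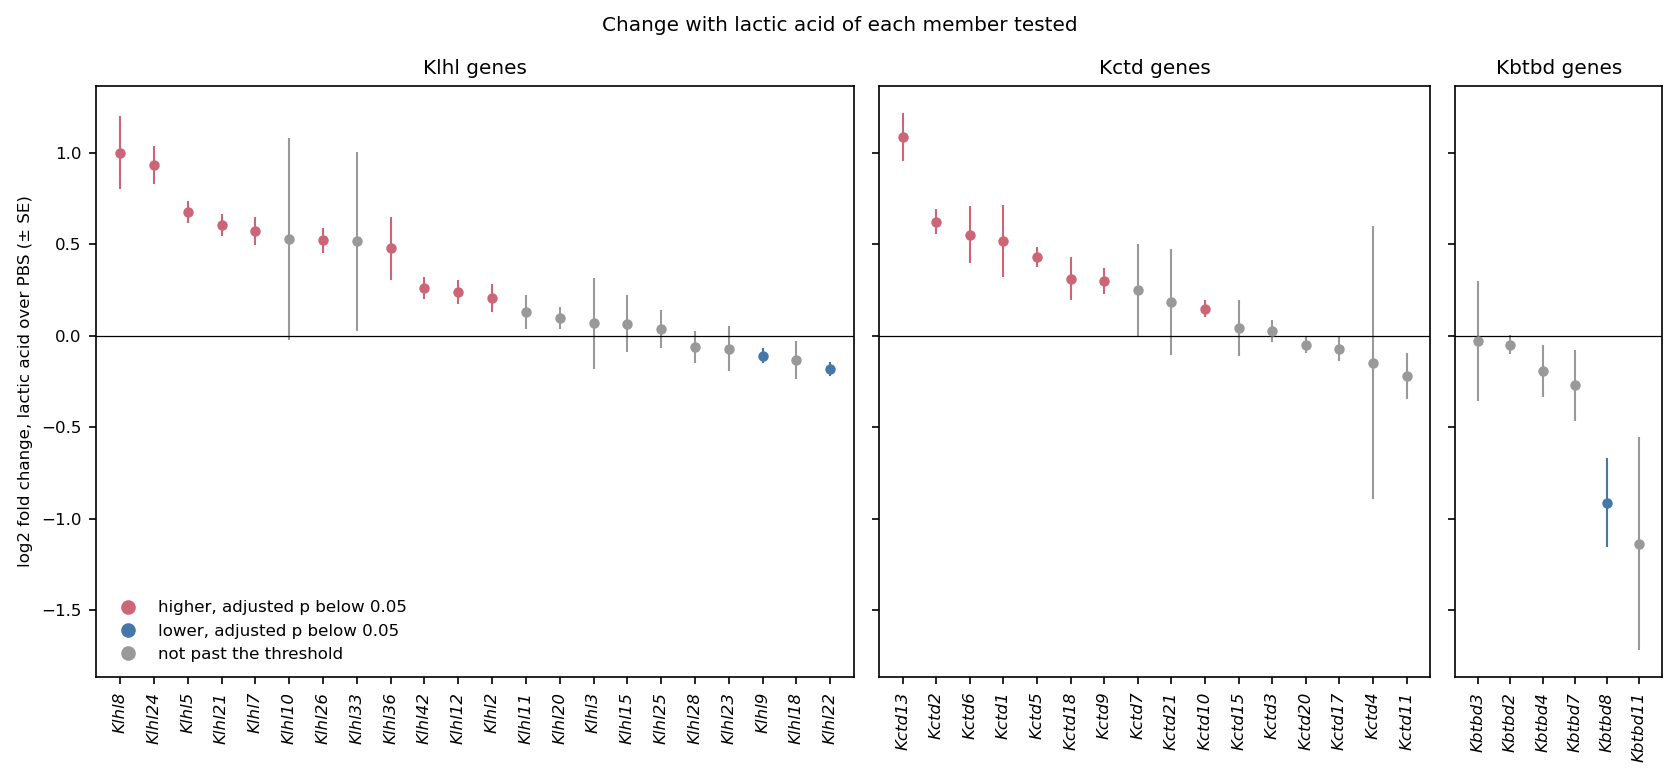
Log2 fold change of each tested member, lactic acid over PBS, with bars of 1 standard error, by family. Red, blue and grey mark members called higher, called lower and not past the threshold. The called Klhl and Kctd genes lie mostly above 0, and all 6 Kbtbd genes lie below it with this scaling (with library totals alone, Kbtbd3 is above 0).

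**Figure D2:**
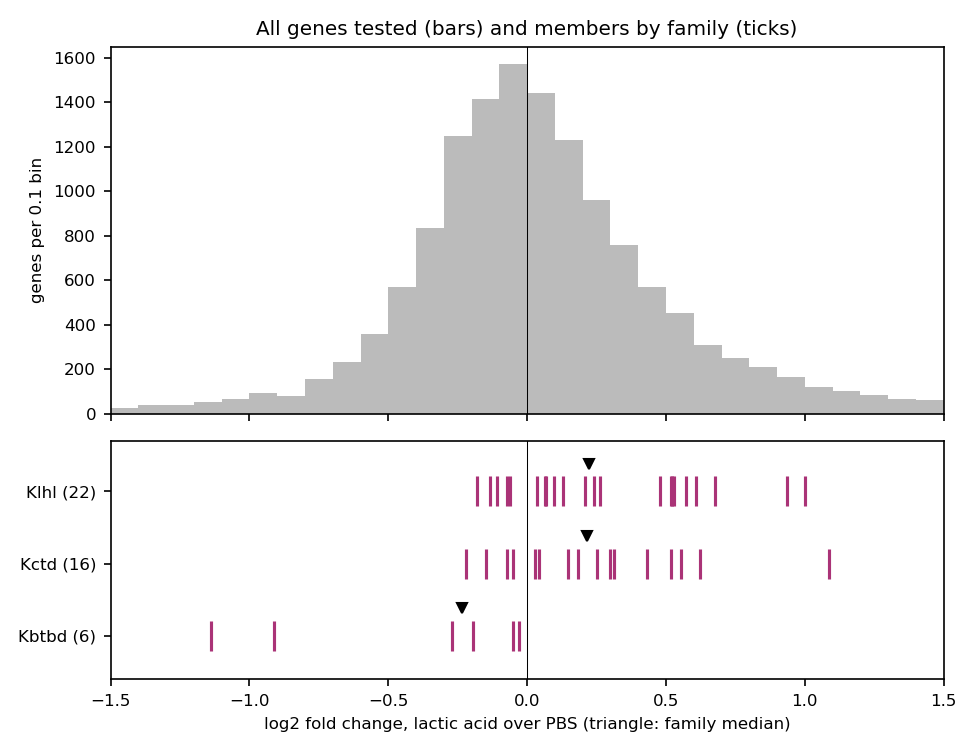
Upper panel, the distribution of the log2 fold changes of all genes tested, of which 374 lie beyond 1.5 in size and are not drawn; lower panel, each tested member as a tick, by family, with a triangle at the family's median. The members lie within the bulk of all genes, with Klhl and Kctd shifted to the right of the Kbtbd members.

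The Klhl genes with the largest changes were Klhl8, Klhl24, Klhl5 and Klhl21, which rose by 1.52-fold to 2.00-fold. With Kctd13 and Kctd2 they were the 6 members called at least 1.5-fold higher, as were 9.58% of all genes tested, and Kbtbd8 was the 1 member called at least 1.5-fold lower, as were 4.19%. Klhl8, whose counterpart KEL-8 limits glutamate receptors at synapses in C. elegans, lies at chr5:103861973-103911259 (coordinates throughout are on GRCm38, as deposited). It read 3.34 and 4.14 CPM with PBS and 7.24 and 7.79 CPM with lactic acid. Both lactic acid libraries were above both PBS libraries, and the fold change was 2.00 (log2 1.00, SE 0.20). Klhl24 (chr16:20097542-20129221), whose product controls keratin levels in human skin and is mutated in a skin fragility disorder, read 14.2 and 14.5 CPM with PBS and 27.6 and 27.3 CPM with lactic acid. The libraries of each group nearly coincided, and the rise was 1.91-fold (log2 0.93, SE 0.10).

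At a higher level, Klhl5 (chr5:65107539-65168188) gave 51.7 and 48.4 CPM with PBS and 78.6 and 81.4 CPM with lactic acid. That is a rise of 1.60-fold (log2 0.68, SE 0.059), with well separated groups. Klhl21 (chr4:152008803-152017680), an adaptor that in human cells directs CUL3 to the mitotic kinase Aurora B at the spindle midzone, had 51.2 and 46.3 CPM with PBS and 75.4 and 73.0 CPM with lactic acid. The fold change was 1.52 (log2 0.61, SE 0.061). In FPKM, Klhl21 went from 12.2 ± 0.884 to 18.5 ± 0.422 (mean ± SD, n = 2), far above Klhl8 at 1.07 ± 0.162 and 2.14 ± 0.111.

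The other 6 Klhl genes called higher rose by at most 1.49-fold. They were Klhl7, which is mutated in a human form of retinitis pigmentosa (28.4 and 28.7 CPM with PBS, 42.1 and 42.9 with lactic acid), Klhl26 (1.44-fold), Klhl36 (1.39-fold), Klhl42, Klhl12 and Klhl2. In human cells KLHL42 marks the microtubule-severing enzyme katanin for degradation, KLHL12 modifies the coat protein SEC31A on vesicles that carry collagen, and KLHL2 degrades WNK kinases, which govern salt transport. Klhl42, at 52.0 and 53.3 CPM with PBS and 62.1 and 64.2 with lactic acid, rose by 1.20-fold, and Klhl12, at 47.4 and 48.1 with PBS and 56.8 and 56.1 with lactic acid, by 1.18-fold. The calls for Klhl36 and Klhl2 were thin. Without lactic acid replicate 1, lactic acid replicate 2 or PBS replicate 1 the adjusted p of Klhl36 was 0.077, 0.066 and 0.075, and it was 0.044 without PBS replicate 2. For Klhl2 it was 0.083, 0.072, 0.053 and 0.064 in the same order. The directions held in each case.

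The 2 Klhl genes with the highest levels were called lower, though by little. Klhl9 (chr4:88718292-88722465), which together with Klhl13 brings CUL3 to Aurora B on mitotic chromosomes in human cells, read 123 and 126 CPM with PBS and 117 and 114 CPM with lactic acid. Its paralogue Klhl13 had 0 counts in all 4 libraries. The change of Klhl9 was 1.08-fold lower (log2 -0.11, SE 0.042), and the adjusted p was 0.19 without lactic acid replicate 2 and 0.13 without PBS replicate 2, against 0.028 with all 4. Klhl22 (chr16:17759618-17793382), whose human protein releases the mitotic kinase PLK1 from kinetochores and degrades DEPDC5, a brake on mTORC1, read 145 and 142 CPM with PBS and 126 and 128 CPM with lactic acid. It was 1.13-fold lower (log2 -0.18, SE 0.040). These 2 genes held the first and second FPKM rank among all members with PBS, at 29.7 ± 0.456 and 27.5 ± 0.431 FPKM.

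Another 10 Klhl genes were tested and not called, with log2 fold changes of -0.13 to 0.53. The most abundant of them were Klhl11, which encodes an autoantigen in human paraneoplastic encephalitis, Klhl25 and Klhl20. Klhl11 had 22.9 and 21.6 CPM with PBS and 24.4 and 24.3 CPM with lactic acid. Klhl25, whose human product degrades the translation repressor 4E-BP1, had 19.5 and 19.8 CPM with PBS and 20.3 and 19.9 CPM with lactic acid. Klhl20, whose human product degrades the tumour suppressor PML, had 53.6 and 57.6 CPM with PBS and 60.4 and 58.5 CPM with lactic acid. In Klhl11 the lactic acid libraries lay above the PBS libraries by a margin similar to the gap between its PBS replicates. In Klhl25 and Klhl20 they also lay above, by less than the gap between the replicates of either group. Klhl3, the close relative of Klhl2 (71.6% identity in the aligned coding sequence), read 3.72 and 3.15 CPM with PBS and 3.75 and 3.44 with lactic acid, with overlapping groups. Klhl18, whose human product activates the mitotic kinase Aurora A, read 19.8 and 22.9 CPM with PBS and 19.8 and 19.3 with lactic acid. Klhl15, Klhl23 and Klhl28 had overlapping groups, as Klhl3 did. The 2 largest values without a call, 0.53 for the spermatid gene Klhl10 and 0.52 for Klhl33, rest on at most 1.27 CPM in a library and have SEs of 0.55 and 0.49.

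**Figure D3:**
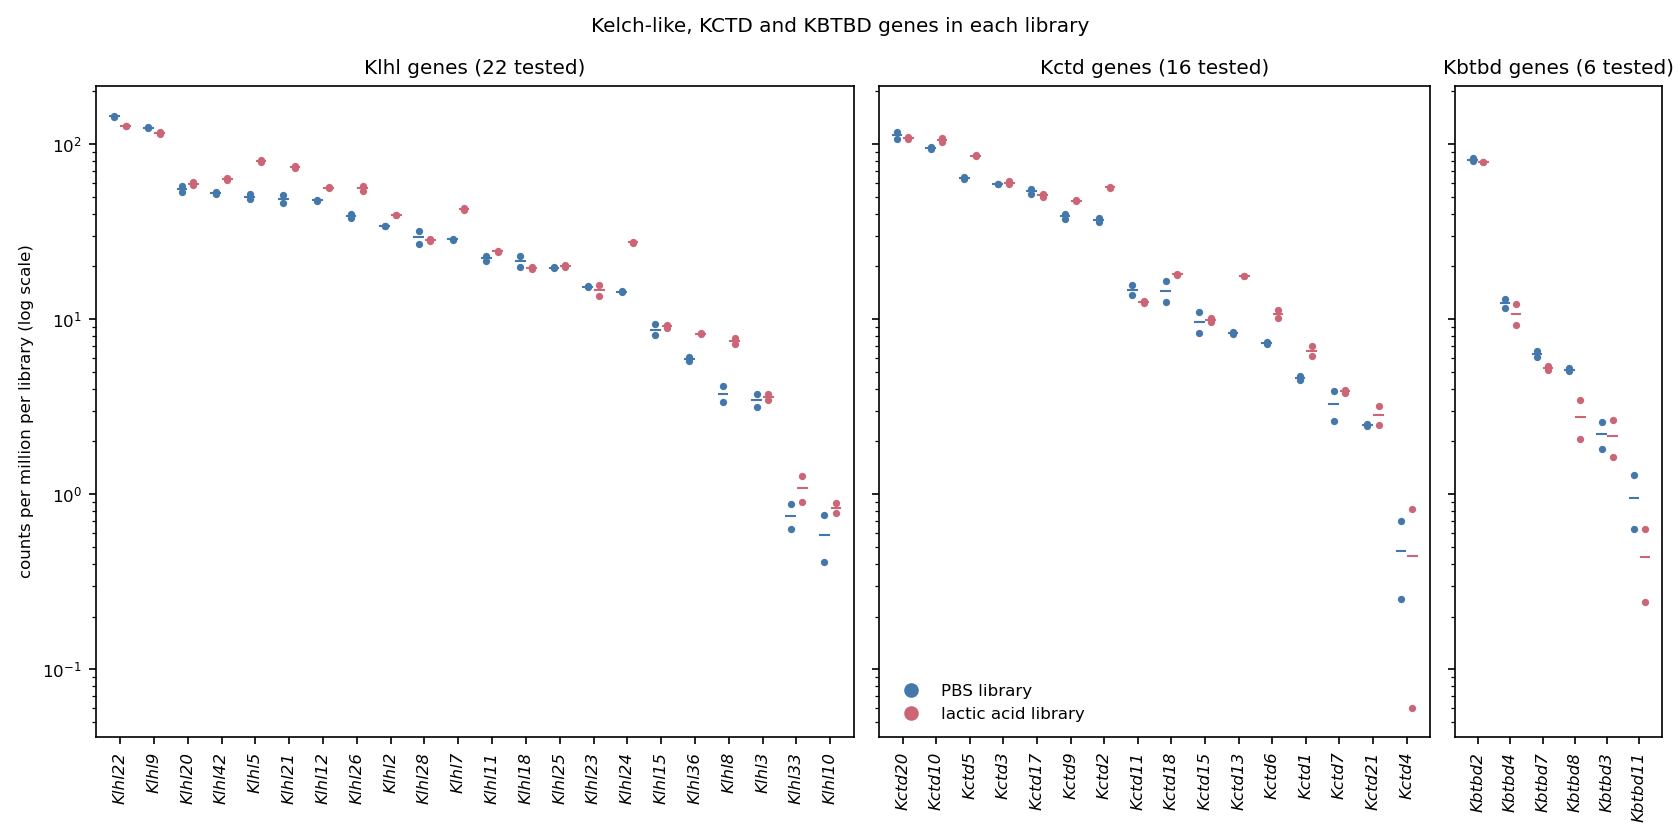
CPM of the 44 tested members in each of the 4 libraries, on a log axis, by family. Each point is 1 library and each short line the mean of a group; the lactic acid points of Klhl8, Klhl24, Klhl5, Klhl21, Kctd13 and Kctd2 lie above their PBS points, and those of Kbtbd8 lie below.

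Among the Kctd genes the largest rise was that of Kctd13, followed by Kctd2. Kctd13 (chr7:126928879-126945631) belongs with Kctd10 and Tnfaip1 to the BACURD adaptors, which in human cells direct CUL3 to the GTPase RhoA. It read 8.44 and 8.17 CPM with PBS and 17.7 and 17.6 CPM with lactic acid. The fold change of 2.13 (log2 1.09, SE 0.13) was the highest of the 44 tested members. Kctd10 (chr5:114363567-114380508) read 95.8 and 94.2 CPM with PBS and 103 and 108 with lactic acid and rose by 1.11-fold (log2 0.15, SE 0.046). Without lactic acid replicate 2 its adjusted p was 0.13. Per length it stood above Kctd13 in both groups, at 25.8 ± 0.884 against 7.04 ± 0.00365 FPKM with lactic acid (mean ± SD, n = 2). Tnfaip1, which the symbol rule leaves out, rose from 129.5 ± 2.09 to 141 ± 6.32 CPM (mean ± SD, n = 2), with an edgeR adjusted p of 0.014, and its call was lost without lactic acid replicate 1 or PBS replicate 2 (largest adjusted p over 13 alternatives, 0.29).

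Kctd2, Kctd5 and Kctd17 form a second close group. KCTD5 in human cells removes the βγ subunits of G proteins through CUL3, and KCTD17 removes trichoplein when cilia form. For Kctd5, the 60 coding bases that best match the other 2 genes are given, with the matching bases of Kctd2 and Kctd17. This stretch was picked as the most alike, and it shows where reads can still tell the 3 genes apart. The bases run 5′ to 3′, with capitals at the positions where the 3 do not all agree. They are coding positions 478 to 537 of Kctd5, 565 to 624 of Kctd2 and 436 to 495 of Kctd17, from the longest GENCODE coding sequence of each.
Kctd5: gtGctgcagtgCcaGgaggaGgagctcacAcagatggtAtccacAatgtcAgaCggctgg
Kctd2: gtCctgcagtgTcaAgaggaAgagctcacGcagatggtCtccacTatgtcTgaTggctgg
Kctd17: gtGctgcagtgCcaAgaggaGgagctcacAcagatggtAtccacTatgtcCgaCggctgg
In this stretch, picked for its likeness, the 3 agree at 51 of the 60 positions. Over the aligned coding sequence, identity was 75.8% for Kctd2 and Kctd5, 75.3% for Kctd17 and Kctd5, and 72.6% for Kctd17 and Kctd2. The aligned parts covered 77.8%, 76.8% and 55.1% of the shorter coding sequence, in the same order. No identical run between their longest transcripts was longer than 29 bases, against reads of 150 bases. In spite of that likeness the values of the 3 genes were not alike. Kctd2 (chr11:115420128-115431274) read 37.8 and 35.7 CPM with PBS and 56.2 and 56.9 CPM with lactic acid, a rise of 1.54-fold (log2 0.62, SE 0.069). Kctd5 (chr17:24047734-24073485) read 64.5 and 63.0 CPM with PBS and 85.7 and 86.2 CPM with lactic acid, a rise of 1.35-fold (log2 0.43, SE 0.054). Kctd17 (chr15:78428564-78439303) read 52.1 and 55.3 CPM with PBS and 50.0 and 52.1 CPM with lactic acid, with overlapping groups and a log2 fold change of -0.072 (SE 0.065). In FPKM, Kctd5 moved from rank 4 of the 66 members with PBS (23.2 ± 0.411) to rank 1 with lactic acid (31.0 ± 0.139), ahead of Klhl9 at 27.3 ± 0.496.

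The KCASH group, Kctd6, Kctd11 and Kctd21, suppresses Hedgehog signalling by degrading the histone deacetylase HDAC1 in human cells. Of these, Kctd6 rose by 1.47-fold, from 7.43 and 7.18 CPM to 11.3 and 10.2 CPM. Kctd11 read 15.6 and 13.7 CPM with PBS and 12.4 and 12.7 with lactic acid (log2 -0.22, SE 0.13), and Kctd21 had 2.45 to 3.18 CPM, both without a call. The RNA of Hdac1 fell from 232 ± 0.799 to 174 ± 4.50 CPM (edgeR adjusted p 1.15e-14), and 24.3% of all genes tested were called lower. The KCASH adaptors act on the HDAC1 protein, which was not measured. Kctd1 and Kctd15 encode related repressors of AP-2 transcription factors. Kctd1 rose by 1.43-fold, from 4.47 and 4.73 CPM to 6.16 and 7.01 CPM, and its adjusted p was 0.18 without lactic acid replicate 2, 0.091 without PBS replicate 1 and 0.054 without PBS replicate 2, against 0.025 with all 4 libraries. Kctd15, at 11.0 and 8.35 CPM with PBS and 9.60 and 10.2 CPM with lactic acid, had overlapping groups.

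Kctd9 and Kctd18 were also called higher. Kctd9 rose by 1.23-fold, from 39.8 and 37.5 CPM to 47.7 and 47.3 CPM. Kctd18 read 12.5 and 16.5 CPM with PBS and 17.9 and 18.2 CPM with lactic acid, so its PBS libraries differed from each other by more than the second of them differed from the lactic acid libraries. Its adjusted p was 0.48 without PBS replicate 1, 0.069 without lactic acid replicate 1 and 0.097 without lactic acid replicate 2, against 0.026 with all 4. It also shares 2455 exon bases, beside a deposited gene length of 12973, with Sgo2a on the opposite strand. Sgo2a held 3469 reads against 1062 for Kctd18. Reads from the shared bases cannot be assigned to either gene without strand, so the value of Kctd18 is partly uncertain. The abundant Kctd3 and Kctd20 were not called, with overlapping groups. Kctd3, a partner of the ion channel HCN3 in mouse, had 58.9 and 59.3 CPM with PBS and 58.9 and 61.7 with lactic acid. Kctd20 had 117 and 107 CPM with PBS and 110.2 and 106 with lactic acid. Kctd7, a gene of human progressive myoclonic epilepsy, had 2.63 to 3.94 CPM and was not called. Kctd4 went from 4 and 12 counts with PBS to 13 and 1 with lactic acid, so its replicates disagree as much as its groups, and its log2 fold change of -0.15 was -2.85 without lactic acid replicate 1 and 0.77 without lactic acid replicate 2.

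The Kbtbd genes gave 1 call, and it was lower. Kbtbd8 (chr6:95117240-95129790), whose human product joins ubiquitin to the ribosome biogenesis factors TCOF1 and NOLC1 during neural crest formation, read 5.04 and 5.25 CPM with PBS and 3.43 and 2.05 CPM with lactic acid, from 80, 90, 54 and 34 counts. Both lactic acid libraries were below both PBS libraries, with a change of 1.88-fold lower (log2 -0.91, SE 0.25). The lactic acid libraries differed from each other, and without lactic acid replicate 2 the log2 fold change was -0.58 with an adjusted p of 0.095. The RNA of its 2 known targets was also called lower, as was that of 24.3% of all genes tested. The adaptor acts on their proteins, which were not measured. Nolc1 went from 408 ± 4.62 to 316 ± 12.8 CPM (log2 -0.37, SE 0.032, edgeR adjusted p 6.74e-15) and Tcof1 from 278 ± 2.13 to 218 ± 6.41 CPM (log2 -0.35, SE 0.035, adjusted p 8.43e-13).

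Kbtbd2, whose mouse protein degrades the p85α subunit of PI3 kinase and is needed for insulin action, was the most abundant Kbtbd gene. At 83.2 and 80.1 CPM with PBS and 78.8 and 78.9 with lactic acid it was not called (log2 -0.049, SE 0.052), although its groups did not overlap. Pik3r1, which encodes p85α, fell from 74.2 ± 2.22 to 52.2 ± 2.17 CPM (log2 -0.50, SE 0.060, edgeR adjusted p 1.38e-10). The p85α protein, on which the product of Kbtbd2 acts, was not measured. Kbtbd7, whose human protein works with KBTBD6 to degrade the Rac activator TIAM1, read 6.11 and 6.59 CPM with PBS and 5.15 and 5.38 with lactic acid (log2 -0.27, SE 0.19) and was not called. The longest transcripts of Kbtbd6 and Kbtbd7 share a run of 536 identical bases, longer than the reads of 150 bases, so their reads are partly uncertain. Kbtbd6 had 5 to 11 counts. Kbtbd4, a gene mutated in some human medulloblastomas, had 13.0 and 11.6 CPM with PBS and 12.2 and 9.31 with lactic acid and was not called. Beside a deposited gene length of 3139 bases, it overlaps Ptpmt1 by 1657 exon bases and Ndufs3 by 88, both on the opposite strand. They had 108.0% and 392.4% as many reads. Reads from the shared bases cannot be assigned without strand, so the value of Kbtbd4 is partly uncertain, mostly through Ptpmt1. Kbtbd3, at 2.58 and 1.81 CPM with PBS and 2.67 and 1.63 with lactic acid, was not called either. Kbtbd11 had a log2 fold change of -1.14 (SE 0.58) from 10, 22, 10 and 4 counts. With 1 library left out the value ran from -1.97, without lactic acid replicate 1, to -0.53, without PBS replicate 2, and it passed the threshold in 1 case, without PBS replicate 1 (adjusted p 0.033, range 0.033 to 0.61 over the 4 omissions).

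**Figure D4:**
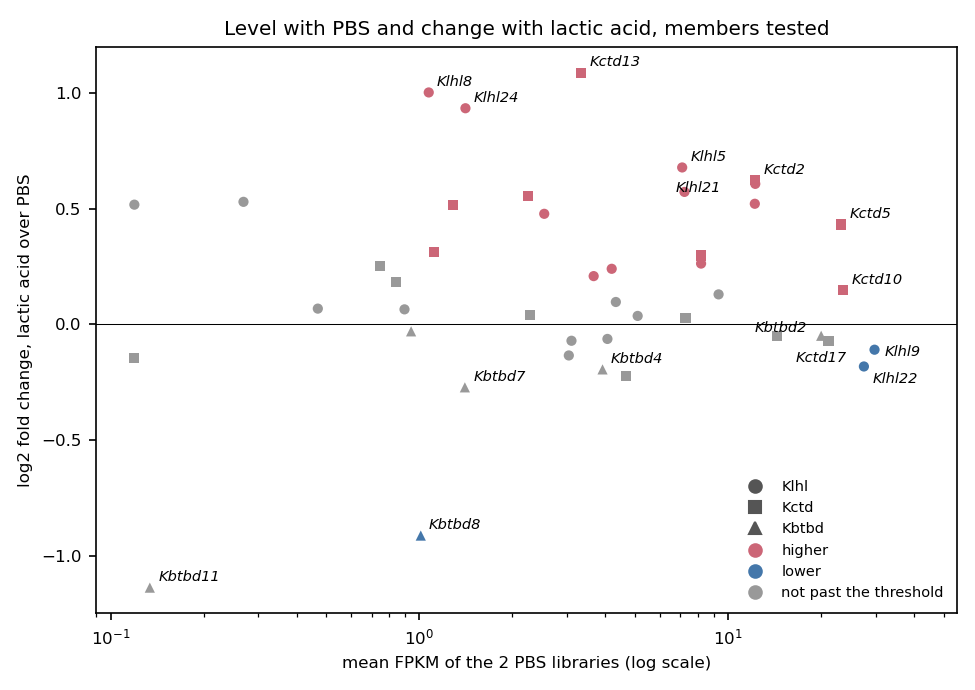
Mean FPKM of the 2 PBS libraries (log axis) against the log2 fold change, for each tested member; shape gives the family and colour the call. The called changes beyond 1.5-fold occur at PBS levels from 1.01 to 12.2 FPKM, and the 5 most abundant members lie between -0.18 and 0.43.

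The remaining 22 members had too few reads for the test, with at most 11 counts in any library and at most 0.642 CPM. They were 14 Klhl, 5 Kctd and 3 Kbtbd genes. Of them, 9 had 0 counts in all 4 libraries, namely Klhl4, Klhl13, Klhl14, Klhl31, Klhl34, Klhl38, Kctd8, Kctd16 and Kbtbd13. A count of 0 allows up to 0.175 to 0.191 CPM in a library, for counting error only. Many genes known for other tissues are in this group. The skeletal muscle genes Klhl31, Klhl40, Klhl41 and Kbtbd13 had 0 to 5 counts in a library, the B cell gene Klhl6 had 0 to 1, and the cerebellar gene Klhl1 had 0 to 1. Kctd8, Kctd12 and Kctd16, which encode auxiliary subunits of GABA-B receptors in neurons, had 1 count between them. Of the receptor subunits, Gabbr1 was detected and rose from 26.6 ± 0.585 to 36.3 ± 1.34 CPM (edgeR adjusted p 5.39e-06).

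Summed over all members, FPKM were 306 and 298 with PBS and 342 and 340 with lactic acid, a ratio of means of 1.13. These FPKM are the authors' values and carry their scaling between libraries. The Klhl sum was 149 and 147 with PBS and 169 and 167 with lactic acid, a ratio of 1.13. For Kctd it was 128 and 125 against 147 and 149, a ratio of 1.17. The Kbtbd sum went the other way, from 28.2 and 27.0 to 26.1 and 24.5, a ratio of 0.918. In each family the groups did not overlap, and in CPM the same held for 72.3% of all genes tested. The sum over all genes had a ratio of 0.992. For Kbtbd the gap between the groups was smaller than the difference between the libraries of either group. The Kbtbd sum includes Kbtbd4, whose value is partly uncertain because of the genes it overlaps. These libraries cannot tell a change in RNA per cell from a change in the share of cells that carry the RNA.

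The promoters of Klhl5, Klhl21, Kctd13 and Kctd2 are shown next. These are the members called at least 1.5-fold higher that had a window in the set of RefSeq windows used here. That set held no window for Klhl8 or Klhl24. Each is taken from the 250 bases before the RefSeq start site, on GRCm38.p6, plus strand, 5′ to 3′, and ends before the first base of the deposited gene. Capitals mark a match to a searched motif.
Klhl5, chr5:65107318-65107538: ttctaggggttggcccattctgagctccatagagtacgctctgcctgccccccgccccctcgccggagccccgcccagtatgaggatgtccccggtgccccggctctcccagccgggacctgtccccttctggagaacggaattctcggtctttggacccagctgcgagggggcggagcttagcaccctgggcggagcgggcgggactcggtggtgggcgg
Klhl21, chr4:152008641-152008802: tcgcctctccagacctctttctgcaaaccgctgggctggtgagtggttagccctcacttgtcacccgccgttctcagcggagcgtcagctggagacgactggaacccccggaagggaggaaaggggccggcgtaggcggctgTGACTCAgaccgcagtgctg
Kctd13, chr7:126928629-126928878: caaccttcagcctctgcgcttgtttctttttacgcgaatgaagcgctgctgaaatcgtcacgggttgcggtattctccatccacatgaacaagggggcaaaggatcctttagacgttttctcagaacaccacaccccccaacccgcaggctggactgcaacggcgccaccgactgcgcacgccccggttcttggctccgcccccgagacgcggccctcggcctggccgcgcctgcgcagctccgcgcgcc
Kctd2, chr11:115419876-115420125: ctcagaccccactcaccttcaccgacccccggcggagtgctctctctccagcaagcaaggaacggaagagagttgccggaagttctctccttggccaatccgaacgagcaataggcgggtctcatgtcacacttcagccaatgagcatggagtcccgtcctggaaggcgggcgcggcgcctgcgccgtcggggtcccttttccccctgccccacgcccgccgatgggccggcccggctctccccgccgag
Of the 66 members, 51 had such a window. Over the full 250 bases, G and C made up 62.8% in Klhl21 to 70.8% in Klhl5. The median of the 51 members, with 1 window each, was 60.4%, beside 52.4% over the 32851 windows of all genes. These sets are unlike, since the windows of all genes include several for some genes and were not limited to protein-coding genes. Both strands were searched for 5 motifs: the E-box CACGTG, the AP-1 site TGANTCA, the antioxidant response element core TGANNNNGC, the C/EBP-ATF site TGATGNAA of the amino acid stress response, and the CRE TGACGTCA. The AP-1 and antioxidant motifs can overlap. Among the windows printed, Klhl21 held a match, TGACTCA, 108 bases before the RefSeq start, and the other 3 stretches held none. A second RefSeq window of Klhl5, not printed, holds the antioxidant core, and a gene counts as holding a motif where any of its windows does. The antioxidant core occurred in 56.9% of the 51 members and in 38.7% of the 27025 genes with a window, and in 53.8% of the 13 members called higher that had one. AP-1 matches were found in 11.8% of the members and 7.8% of all genes, E-boxes in 5.9% and 6.9%, the C/EBP-ATF motif in 2.0% and 3.9%, and the CRE in 3.9% and 1.8%. A match describes letters in this window and is no evidence that a factor binds.

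In gene structure, the families differ in ways the symbol rule did not use. The coding sequences of the tested Klhl and Kbtbd genes had medians of 1810.5 and 1845 bases, and that of the tested Kctd genes 918 bases. Coding exons of the tested members numbered 1 to 15 in Klhl, 1 to 18 in Kctd and 1 to 4 in Kbtbd. Among the tested members, the whole coding sequence lay in 1 exon in Klhl9 and Klhl25, in Kctd4, Kctd11 and Kctd21, and in Kbtbd7 and Kbtbd11.

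Cul3, the scaffold of the ligase, and its RING partner Rbx1 both fell. Cul3 read 226 and 228 CPM with PBS and 181 and 179.8 with lactic acid, a fall of 0.33 on the log2 scale (SE 0.037, edgeR adjusted p 1.50e-11). Rbx1 fell from 92.5 ± 0.299 to 71.0 ± 0.0744 CPM (log2 -0.38, SE 0.051, adjusted p 4.51e-09). Among the 17 genes of the CUL3 core and of NEDD8 attachment, 3 were higher (17.6%, beside 24.7% of all genes), 7 lower (41.2%, beside 24.3%) and 7 not past the threshold, with a median log2 fold change of -0.088. The cullin exchange factors Cand1 and Cand2, the NEDD8 ligases Dcun1d2 and Dcun1d5 and the NEDD8 E2 enzyme Ube2m were the other 5 that fell. Dcun1d3, Dcun1d4 and Senp8 were higher, and none of these 3 was called without PBS replicate 1 or without lactic acid replicate 1. The NEDD8 gene itself read 87.1 ± 4.80 CPM with PBS and 81.9 ± 3.79 with lactic acid, which was not past the threshold (adjusted p 0.16, 0.045 without PBS replicate 2, range over alternatives 0.045 to 0.72).

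The COP9 signalosome, which removes NEDD8, had 6 of 10 genes lower, 1 higher and 3 not past the threshold, or 60% lower and 10% higher beside the 24.3% and 24.7% of all genes (median log2 fold change -0.15). Cops2 fell from 259 ± 0.408 to 205 ± 0.0996 CPM (log2 -0.34, SE 0.035, edgeR adjusted p 3.84e-12), and Cops3 from 90.7 ± 0.543 to 64.8 ± 1.81 CPM (log2 -0.48, SE 0.053, adjusted p 1.38e-11). The 1 higher gene, Cops7a, was not called in any of the 4 cases with a library left out. Of the other 7 cullins, Cul1, Cul2, Cul4b, Cul5 and Cul7 were lower, Cul4a higher and Cul9 not past the threshold, or 71.4% lower and 14.3% higher (median -0.33). Cul4b, the scaffold of a ligase that acts on chromatin and DNA repair, fell from 106 ± 2.24 to 67.0 ± 1.47 CPM (log2 -0.66, SE 0.050, adjusted p 2.47e-17). Cul1, the scaffold of the SCF ligases, fell from 219 ± 7.47 to 162 ± 1.88 CPM (log2 -0.43, SE 0.038, adjusted p 4.81e-15). The call of Cul4a was lost without lactic acid replicate 1 and without PBS replicate 2, and that of Cul2 without lactic acid replicate 1 and without PBS replicate 1.

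Among BTB-Kelch genes whose symbols the rule leaves out, Enc1 and Ivns1abp were higher, Keap1 was lower, and Ipp was not past the threshold (edgeR adjusted p 0.057, and 0.019 to 0.43 over 13 alternatives). Enc1, an actin-associated gene of neural cells, rose from 88.6 ± 0.558 to 128 ± 2.80 CPM (log2 0.53, SE 0.044, edgeR adjusted p 1.20e-15), and Ivns1abp from 228 ± 8.79 to 287 ± 2.69 CPM (log2 0.33, SE 0.035, adjusted p 4.05e-12). Keap1 read 73.8 and 67.2 CPM with PBS and 59.5 and 59.6 CPM with lactic acid, a fall of 0.24 on the log2 scale (SE 0.059, adjusted p 4.98e-04). Nfe2l2, which encodes its target NRF2, also fell, from 204 ± 7.86 to 177 ± 7.97 CPM (adjusted p 1.01e-05). Among 16 other BTB genes, 9 were higher, 2 lower and 5 not past the threshold, or 56.2% higher and 12.5% lower beside the 24.7% and 24.3% of all genes (median 0.23). Rhobtb3, an atypical GTPase relative, rose from 121 ± 3.93 to 163 ± 1.33 CPM (log2 0.43, SE 0.040, adjusted p 8.75e-14) and Btbd2 from 92.8 ± 1.13 to 118 ± 1.59 CPM (log2 0.35, SE 0.045, adjusted p 1.01e-09). The number higher was 6 to 8 with 1 library left out.

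Among known substrates and partners of the adaptors, of 29 tested, 8 were higher (27.6%, beside 24.7% of all genes), 11 lower (37.9%, beside 24.3%) and 10 not past the threshold, with a median log2 fold change of -0.039, which was 0.0059 when counts were scaled by library totals alone. Eif4ebp1, which encodes the 4E-BP1 protein degraded through KLHL25, rose from 137 ± 7.06 to 191 ± 5.74 CPM (log2 0.47, SE 0.040, edgeR adjusted p 1.98e-15). Aurkb, which encodes Aurora B, rose from 159.7 ± 0.127 to 189.5 ± 1.31 CPM (adjusted p 1.46e-07), and Plk1, the partner of KLHL22, fell from 185 ± 1.86 to 159 ± 0.721 CPM (adjusted p 3.62e-06). Rhoa, the target of the BACURD adaptors, read 348 ± 7.93 CPM with PBS and 319 ± 12.8 with lactic acid (log2 -0.13, SE 0.033, adjusted p 0.0010), a call that was lost without lactic acid replicate 2 (adjusted p 0.054, the highest over 13 alternatives). Tfap2a, the AP-2 gene whose protein KCTD1 and KCTD15 repress, fell from 34.1 ± 1.84 to 19.9 ± 0.227 CPM (log2 -0.77, SE 0.089, adjusted p 5.59e-11). These are RNA levels, and the proteins on which the adaptors act were not measured.

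**Figure D5:**
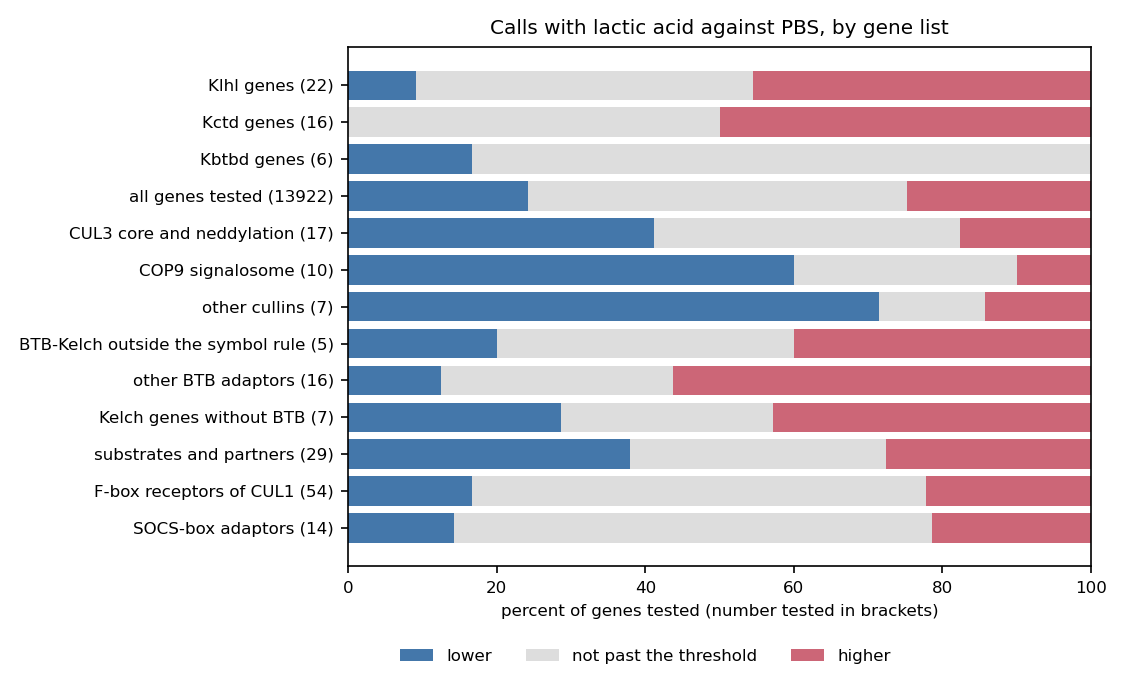
Percent of tested genes called lower, not past the threshold and called higher, in the 3 adaptor families, in all genes and in each list of related genes, with the number tested in brackets. The bars of the COP9 signalosome and of the other cullins are mostly lower. Those of Klhl, Kctd and the other BTB adaptors hold more higher than lower genes. So do the bars of the other BTB-Kelch, Kelch without BTB, F-box and SOCS-box genes and, by a little, that of all genes.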

How the data were processed

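The members and the lists of related genes were chosen with earlier results of these data known. Per the labels, TRIzol RNA was selected for poly(A) and prepared with NEBNext Ultra reagents, a method without strand marking, for paired reads of 150 bases. Deposited counts are whole numbers of reads for each gene, unscaled. The deposited FPKM table was made by the authors and carries a scaling between libraries. HISAT2 2.0.5 and featureCounts 1.5.0-p3 are among the tools, and GRCm38.p6 and mm10 the builds, that the submitters' processing notes name. How reads of overlapping genes or of several loci were counted is not given in the sources used here.

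Counts were tested with edgeR 4.0.16 in R 4.3.3: filterByExpr (minimum count 10, minimum total 15), TMM factors, a robust quasi-likelihood fit with the group as the only term, a two-sided test and Benjamini-Hochberg adjustment over 13922 genes at 0.05. The SE is the size of the log2 fold change over the square root of F. With 2 libraries against 2, an exact permutation test of a single value cannot go below p = 0.333, so none was used. Lists got counts and medians only. Alternatives were other scalings and filters, DESeq2 1.42.0, limma 3.58.1 (limma-trend on log2(FPKM + 0.1)), a non-robust fit, a replicate block and each library left out.

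Members are named where called with at least 1.5-fold, among the 3 most abundant of a family, among the 3 most abundant not called, or, 1 per family, called with the smallest change; the rest of the tested members are named to account for all of them and were picked after their values were seen. Of each related list, the 2 genes with the smallest adjusted p are named, with Cul3, Rbx1 and Keap1; other genes of these lists were named after their values were seen. Coding sequences and overlaps come from GENCODE, promoter windows from RefSeq on GRCm38.p6, and alignments from blastn 2.17.0. Some genes of the marker and related lists are not reported here.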

Additional observations from a re-analysis of the deposited data

How the results depend on the processing

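Of 21 called members, 13 kept their call in all 13 alternatives, and of 23 not called, 22 were never called. Across the 20 members named by rule, 248 of 260 values kept direction and call, 10 lost the call and 2 changed sign, Kctd3 without lactic acid replicate 2 (-0.0055) and Kctd20 without PBS replicate 1 (0.015), neither of which was called. With other libraries left out, Kctd3 reached 0.059 (without lactic acid replicate 1) and Kctd20 -0.12 (without PBS replicate 2). The number of Klhl genes lower was 2 and became 1 with upper quartile scaling, with library totals alone, with DESeq2 and with limma-trend on FPKM, each time through Klhl9. DESeq2 called 5 Kctd genes higher, against 8, and 2251 of all genes higher, against 3445. The Klhl median log2 fold change of 0.22 was 0.24 with upper quartile scaling, 0.27 with library totals alone, 0.11 with no filter and 0.17 with a stricter one, since filters change which genes enter. Scaling moved the median of all genes by at most 0.045. With 1 library left out, Klhl genes higher were 8 to 9 and lower 1 to 2 (median 0.18 to 0.23), Kctd genes higher 5 to 7 and lower 0 (median 0.20 to 0.30), Kbtbd genes lower 0 to 2 (median -0.41 to -0.18), and all genes 2819 to 3066 higher and 2919 to 3081 lower. For Kctd genes the 5 came without lactic acid replicate 2. The called members that lost their call in at least 1 alternative were Klhl2, Klhl9, Klhl12, Klhl36, Kctd1, Kctd10, Kctd18 and Kbtbd8. Shared replicate numbers do not pair the libraries by any label, and deviations of same-numbered libraries were uncorrelated (0.0038). The replicate block gave 10 Klhl genes higher and 2 lower, 8 Kctd genes higher, and 3459 of all genes higher and 3393 lower, and changed no member count. At this depth 3 counts are 0.175 to 0.191 CPM, and 9 of the 22 members below the filter had no count; the other 13, tested with no filter, had adjusted p-values of 0.47 or more.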

Other observations

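The F-box proteins, which hold substrates for CUL1 ligases, had 54 tested genes, of which 12 were higher, 9 lower and 33 not past the edgeR threshold. These are 22.2% higher and 16.7% lower, both below the 24.7% and 24.3% of all genes tested, with a median log2 fold change of 0.025. Fbxl20 rose from 33.3 ± 1.15 to 66.4 ± 3.90 CPM (mean ± SD, n = 2; log2 1.00, SE 0.068, adjusted p 3.57e-19) and Fbxl16 from 29.7 ± 0.0666 to 40.9 ± 2.14 CPM (log2 0.46, SE 0.078, adjusted p 1.14e-06). The number lower was 2 to 6 with 1 library left out and 2 with DESeq2.

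The SOCS-box adaptors had 14 tested genes, with 3 higher, 2 lower and 9 not past the threshold. These are 21.4% and 14.3%, beside the 24.7% and 24.3% of all genes. With library totals alone 6 were higher and 2 lower, and 4029 of all 13922 genes were higher. The median log2 fold change was 0.039, with -0.0085 under a stricter filter and 0.085 with library totals alone. Socs2, a feedback inhibitor of growth hormone signalling, rose from 3.02 and 2.98 CPM with PBS to 10.4 and 10.5 CPM with lactic acid (log2 1.80, SE 0.19, edgeR adjusted p 4.19e-12), and Socs7 from 44.4 ± 1.96 to 57.4 ± 0.191 CPM (log2 0.37, SE 0.065, adjusted p 3.07e-06). Among 7 tested Kelch genes without a BTB domain, 3 were higher and 2 lower, or 42.9% and 28.6%. Klhdc1 rose from 6.20 ± 1.75 to 13.2 ± 0.714 CPM (log2 1.09, SE 0.16, edgeR adjusted p 5.88e-08) and Klhdc10 from 110.3 ± 3.02 to 137 ± 3.73 CPM (log2 0.31, SE 0.042, adjusted p 7.90e-09).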
